A study of Arabidopsis thaliana with 18 samples.

Results

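Dry and imbibed Arabidopsis thaliana seeds of the line mpk7_ko3, labelled as a knock-out of the MAP kinase gene MPK7 in the Col-0 background, were compared across all genes. The comparison used 6 of the 18 libraries of the series, 3 of dry seeds and 3 of seeds imbibed for 6 h on wet filter paper. The other 12 libraries came from dry and imbibed seeds of wild-type Col-0 and of mkk3-1, a line labelled as a knock-out of the MAP kinase kinase gene MKK3, again with 3 libraries in each group. All seeds were freshly harvested, total RNA was the starting material, and the reads were paired. How RNA was selected for the libraries is not described here. Of 32833 annotated genes, 17758 had enough reads to be tested. The labels do not say whether the 3 libraries of a group came from separate plants or seed batches, so the p-values measure the spread between these libraries, which may be technical. The line mpk7_ko3 is a single mutant allele, and whole seeds hold embryo, endosperm and seed coat, so that fewer cells of a type and less RNA per cell cannot be told apart.

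A dry seed stores RNA made during maturation, including transcripts for storage proteins, oil body proteins and the late embryogenesis abundant (LEA) proteins that protect cells from drying. On imbibition the embryo takes up water, respiration and protein synthesis restart, and the balance between abscisic acid (ABA), which holds seeds dormant, and gibberellin, which promotes germination, decides whether the seed coat is ruptured. MAP kinase modules pass signals from a MAPKKK to a MAPKK to a MAPK. MKK3 acts above the group C MAP kinases, to which MPK7 belongs, and MKK3 is known for its effect on grain dormancy in barley and wheat. In Arabidopsis, ERF4, a repressor of expansin genes, has been described as a substrate of MPK7.

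The 6 libraries held 18249333 to 21036275 counts. Levels are given as CPM, the counts divided by the library total in units of 1e+06 after scaling with TMM factors, in the order of replicates 1, 2 and 3. The first principal component of log2 CPM held 91.8% of the variance and separated dry from imbibed libraries. The second held 4.14% and set replicate 3 apart from replicates 1 and 2 in both states, so that genes whose result rests on replicate 3 are given with and without it. The seed label was matched by the reserves: storage protein genes summed to 75718 to 104616 CPM in dry libraries, whereas the 22 green tissue markers summed to 238 to 318 CPM. MPK7 (AT2G18170, TAIR10 chromosome 2, 7907774 to 7910040, minus strand) stood at 15.2, 14.3 and 14.7 CPM in dry and at 11.3, 13.1 and 14.3 CPM in imbibed mpk7_ko3 seeds. All 6 values were below the Col-0 levels of 41.3 ± 2.76 CPM in dry and 35.2 ± 2.56 CPM in imbibed seeds (SD, n = 3). The log2 difference from Col-0 was −1.49 ± 0.0951 (SE) in dry seeds, with an adjusted p of 1.32e-08. It was −1.45 ± 0.0917 in imbibed seeds, with an adjusted p of 1.13e-08. Reads of MPK7 therefore remained in the line labelled as a knock-out, and counts per gene do not show whether they belong to complete transcripts. Within mpk7_ko3, MPK7 differed by −0.19 ± 0.0982 between imbibed and dry seeds, which did not pass the test at an adjusted p of 0.0937. It passed without imbibed replicate 3 (−0.27, adjusted p = 0.0295) and was 0.37 when scaled by library totals.

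Imbibition for 6 h went with a change in most of the measured transcripts. At an adjusted p below 0.05, 12873 of 17758 genes changed (72.5%), of which 6684 rose (37.6%) and 6189 fell (34.9%). All fold changes here are log2 of imbibed over dry, with the standard error from the edgeR quasi-likelihood fit and p-values adjusted by Benjamini-Hochberg over all genes tested. The median change over all genes was 0.06, with quartiles of −0.66 and 0.80. Changes of at least 2-fold comprised 3356 rises and 2907 falls, and changes of at least 16-fold 227 rises and 278 falls. The dry and imbibed values did not overlap for 12789 genes, 72.0% of those tested.

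Rises and falls lay at different levels on the CPM scale, which is not set per length. Genes that rose had a median level of 7.51 CPM in dry and 14.96 CPM in imbibed seeds, and genes that fell one of 35.6 CPM in dry and 18.9 CPM in imbibed seeds, a gap to which the direction of change itself contributes. Among the 1715 genes with a mean over 100 CPM, 57.2% fell and 30.4% rose, whereas among the 3150 genes between 1 and 5 CPM 22.4% fell and 43.4% rose. Small nucleolar RNA genes, whose products guide modification of ribosomal RNA, rose in 102 of 135 tested genes and fell in 3. For all genes the shares were 37.6% and 34.9%. Counts per gene do not show whether these reads belong to the small RNAs or to longer transcripts that hold them. The calls and levels above depend on the scaling, because the TMM factors were 0.763 to 0.858 for dry and 1.18 to 1.20 for imbibed libraries. Scaled by library totals alone, 10447 genes were higher and 3332 lower, and the median of all genes moved up by 0.55. Higher genes then made up 75.8% of the calls, against 51.9% with TMM factors and 59.0% with upper-quartile factors.

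**Figure D1:**
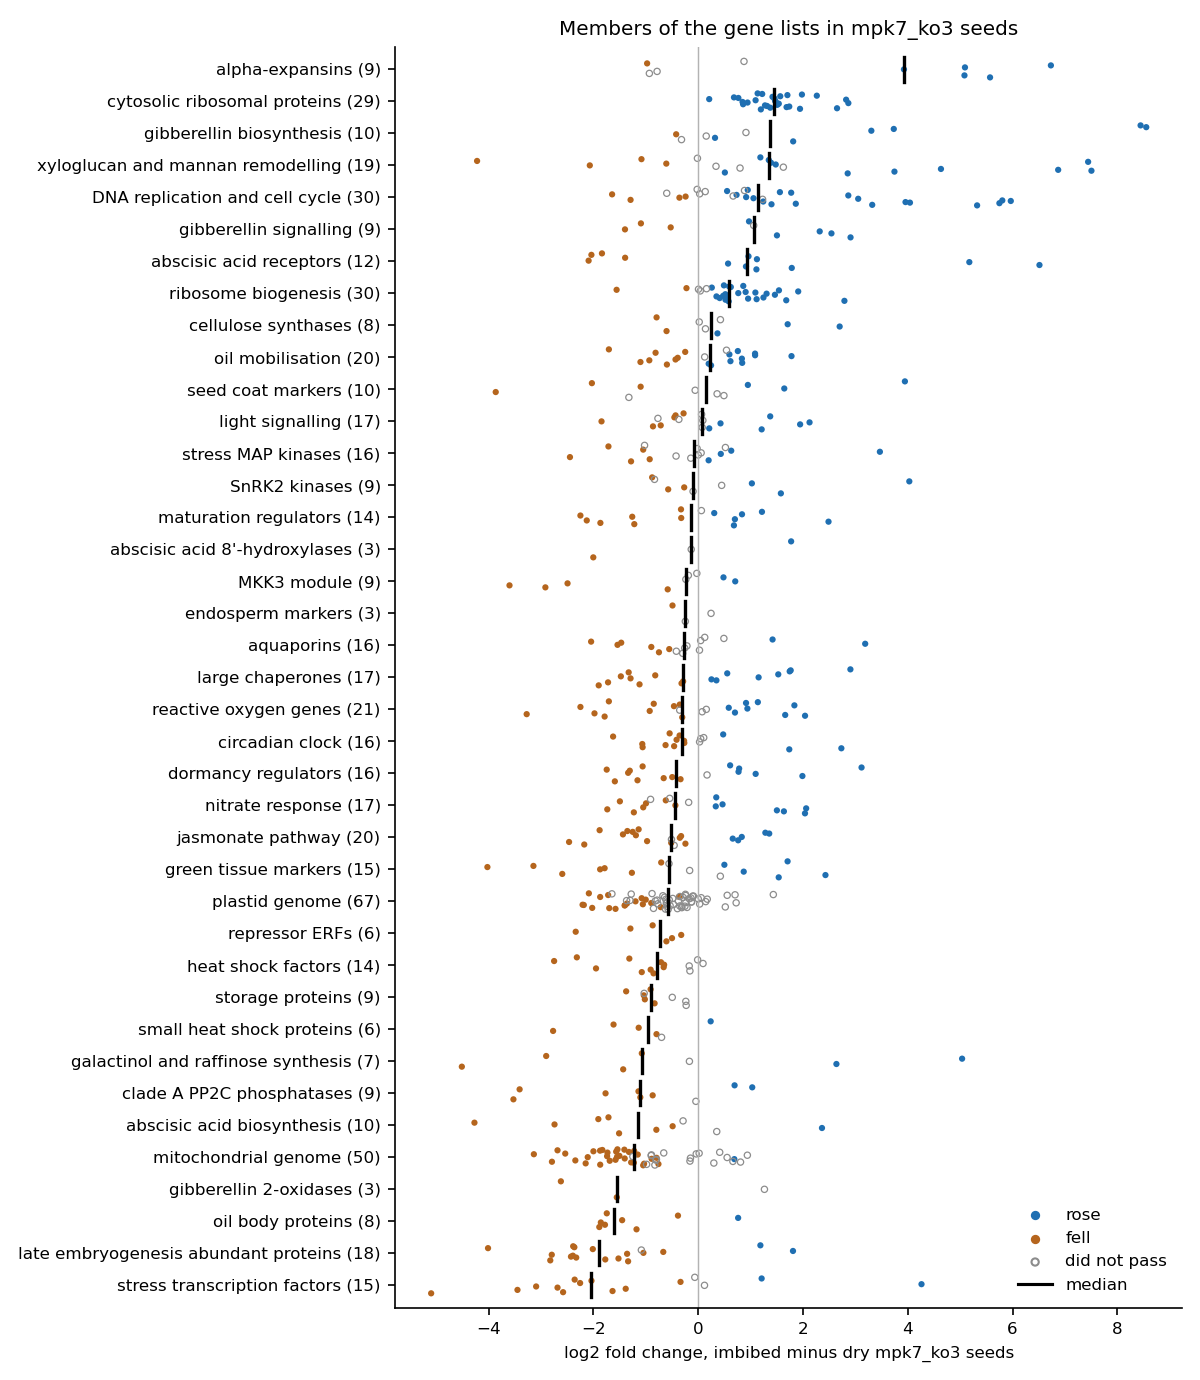
Log2 fold change, imbibed minus dry mpk7_ko3 seeds (x axis), of each tested member of the 37 gene lists and of the plastid and mitochondrial genomes (y axis, with the number tested). Blue points rose, brown points fell, open points did not pass the test, and black bars are medians; alpha-expansins and cytosolic ribosomal proteins have the highest medians (3.93 and 1.45) and stress transcription factors the lowest (−2.04). Points of genes with no read in 1 state are fitted values that depend on the prior count.

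The 12 largest rises among genes of at least 5 CPM included transcription factors, cell wall proteins and a hormone receptor. The basic leucine zipper gene bZIP44 (AT1G75390, chromosome 1, 28291698 to 28293008, plus strand) had 0.0689, 0.0666 and 0 CPM in dry and 13.6, 13.3 and 6.09 CPM in imbibed seeds, a log2 change of 7.80 ± 0.578 (adjusted p = 1.27e-10). NTL8, a membrane-bound NAC transcription factor, went from 0.138, 0 and 0.120 to 14.2, 11.2 and 16.6 CPM (7.24 ± 0.340). WOX11, a homeobox factor known from the founding of adventitious roots, went from 0.276, 0.733 and 0.179 to 39.8, 48.0 and 27.7 CPM (6.60 ± 0.283, and 7.39 without dry replicate 2). For all 3 genes no dry library exceeded 0.733 CPM, and every imbibed library lay far above.

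EXL5, an EXORDIUM-like protein of the cell wall (AT2G17230, chromosome 2, 7494536 to 7496292, minus strand), had the smallest p of the risen genes. It stood at 3.86, 2.598 and 3.47 CPM in dry and at 266, 305 and 225 CPM in imbibed seeds, a log2 change of 6.32 ± 0.158 (adjusted p = 2.23e-17). The ABA receptor PYL4 rose from 0.276, 0.666 and 0.897 to 64.4, 57.3 and 51.5 CPM (6.51 ± 0.265). For both genes every imbibed library lay far above every dry one. A predicted protein kinase gene, AT1G80640, rose by 5.69 ± 0.205 and reached 116, 110.3 and 152 CPM. The multicopper oxidase-like gene sks17 rose by 5.68 ± 0.267, AT3G07470, which encodes a protein of unknown function, by 5.75 ± 0.246, and AT3G24420, an alpha/beta-hydrolase, by 5.87 ± 0.269 (6.49 without dry replicate 3). The expansins EXPA10 and EXPA1 complete the set with AT2G44798, which rose by 7.25 ± 0.283 from 1.38, 1.67 and 1.08 to 242, 215 and 167 CPM. AT2G44798 overlaps AT2G44800 on the other strand by 1732 bases, and since the strand setting of the counting is not stated, reads of the pair cannot be told apart.

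**Figure D2:**
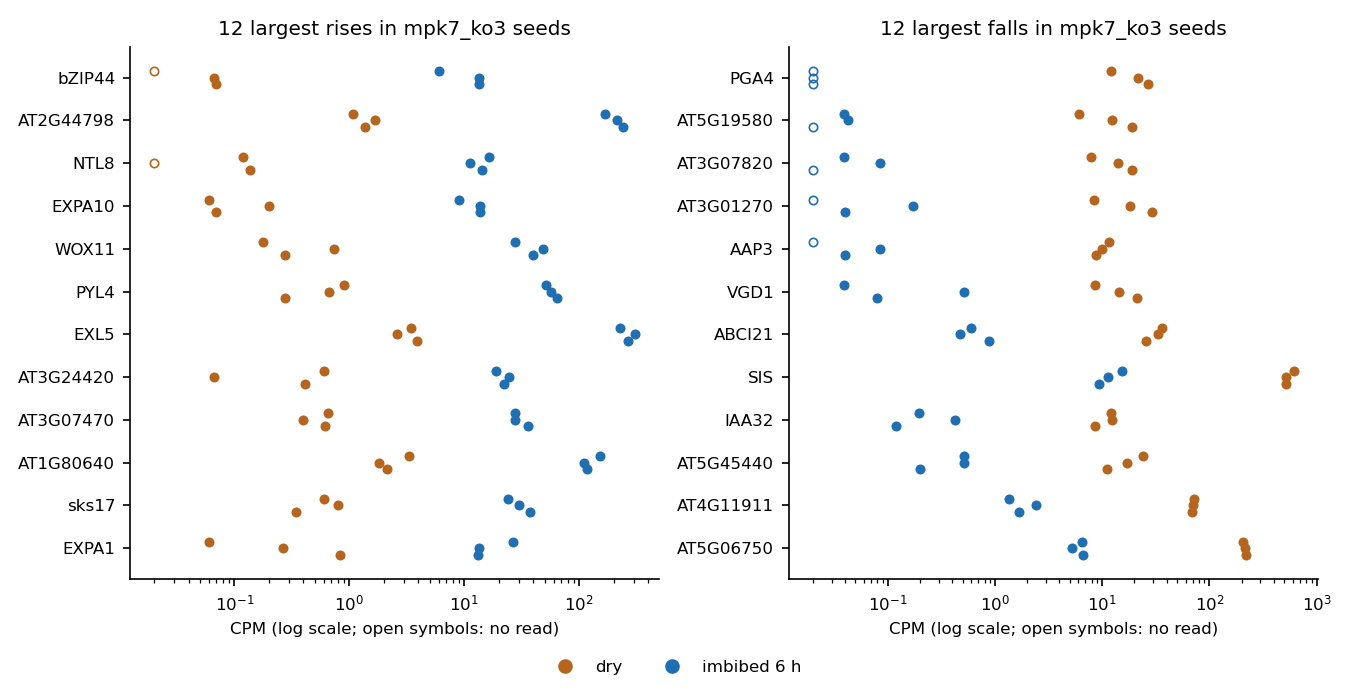
CPM on a log scale (x axis) in the 3 dry (brown) and 3 imbibed (blue) libraries for the 12 largest rises (left) and 12 largest falls (right) among genes with a mean of at least 5 CPM. Open symbols at the left edge are libraries with no read; dry and imbibed values do not overlap for any of the 24 genes, which the choice of genes required.

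The 12 largest falls included several enzymes of pectin, a cell wall polysaccharide. PGA4, a polygalacturonase (AT1G02790, chromosome 1, 610363 to 612324, minus strand), stood at 26.7, 21.7 and 12.02 CPM in dry seeds and had no read in any imbibed library, which is at least 165-fold lower against a floor of 3 counts per library (0.122 CPM). Another 4 of the 12 are also annotated as enzymes or related to them, namely AT3G01270, a pectate lyase, AT3G07820, a pectin lyase-like protein, AT5G19580, related to glyoxal oxidase, and VGD1, a pectin methylesterase needed for pollen tube growth. VGD1 went from 21.2, 14.4 and 8.55 to 0.0796, 0.512 and 0.0395 CPM (−6.13 ± 0.641, and −7.80 without imbibed replicate 2). For these genes dry replicate 1 was the highest and dry replicate 3 the lowest.

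A list of 32 pollen genes, chosen after their values were seen and therefore a description only, moved the same way. Of its members 15 were tested, of which 14 fell and 1 (ANX1) rose, with a median of −6.13, or −4.18 with the 6 genes without an imbibed read held at their floor. Summed over the list, dry mpk7_ko3 libraries held 66.4 to 148 CPM and imbibed ones 15.9 to 19.9 CPM. Dry libraries held 39.4 to 95.2 CPM in Col-0 and 47.0 to 60.8 CPM in mkk3-1, and imbibed libraries 13.0 to 15.5 and 16.5 to 18.4 CPM. In imbibed mpk7_ko3 libraries 16 of the 32 genes had no read, against 4 in dry ones. The part of pollen RNA in these falls was not tested.

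**Figure D3:**
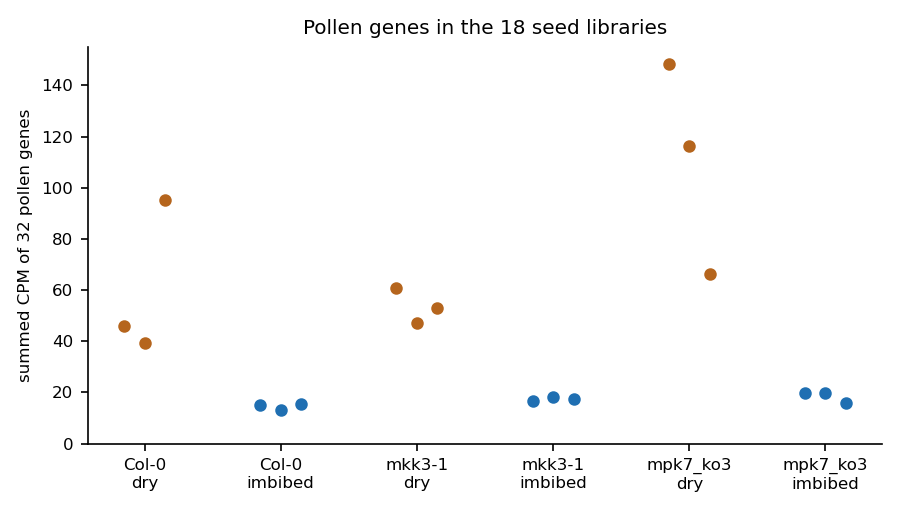
Summed CPM of the 32 pollen genes (y axis) in each of the 18 libraries by genotype and state, replicates 1 to 3 from left to right. Imbibed libraries (blue) lie between 13.0 and 19.9 CPM in the 3 genotypes and dry libraries (brown) between 39.4 and 148 CPM.

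Among the other large falls, SIS (AT5G02020, chromosome 5, 385878 to 388231, minus strand) had 515, 519 and 611 CPM in dry and 9.43, 11.4 and 15.2 CPM in imbibed seeds (−5.51 ± 0.175). ABCI21, an ABC transporter subunit, fell from 25.7, 33.0 and 36.0 to 0.875, 0.469 and 0.593 CPM (−5.59 ± 0.194). AT5G06750, a predicted protein phosphatase 2C, fell from 220.4, 217 and 205 to 6.57, 5.29 and 6.44 CPM (−5.13 ± 0.129). For all 3 the spread within each state was small beside the gap between the states. AT4G11911, annotated as a STAY-GREEN-like protein, fell by 5.28, from 68.9, 70.5 and 71.4 to 1.67, 2.43 and 1.344 CPM. AAP3, an amino acid permease, fell by 7.76 (8.60 without imbibed replicate 2 and 7.11 without replicate 3 of both states), IAA32, an auxin response repressor, by 5.46 (6.06 without imbibed replicate 2) and AT5G45440, a predicted nucleoside triphosphate hydrolase, by 5.41. IAA32 overlaps AT2G01210 on the other strand by 826 bases, and AT5G06750 overlaps AT5G06755 on its own strand by 151 bases.

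Genes of the ABA pathway moved in both directions. Of 10 tested synthesis genes, 7 fell and 1 rose, against 34.9% and 37.6% of all genes. Their median was −1.15, against 0.06 for all genes. ABA1, zeaxanthin epoxidase, fell from 549.7, 537 and 531 to 193, 189.8 and 186 CPM (−1.51 ± 0.0667, adjusted p = 4.72e-14). NCED9 and NCED6, the 9-cis-epoxycarotenoid dioxygenases known from seeds, fell by 1.71 and by 1.90, or by 2.57 for NCED6 without replicate 3 of both states. NCED3, the drought-induced member, fell from 5.10, 2.798 and 4.19 to 0.358, 0.213 and 0.0395 CPM (−4.27 ± 0.532, and −4.96 without imbibed replicate 1). The exception was ABA4, which makes neoxanthin and rose from 1.65, 1.80 and 3.11 to 11.9, 12.02 and 10.4 CPM (2.36 ± 0.224).

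The ABA 8′-hydroxylases, which break the hormone down, split. CYP707A2, the main one in imbibed seeds, stood at 73.6, 78.5 and 49.7 CPM in dry and at 66.1, 56.3 and 61.5 CPM in imbibed seeds (−0.13 ± 0.150, adjusted p = 0.439), a difference that was 0.43 with an adjusted p of 0.00877 when scaled by library totals. CYP707A1 fell from 11.8, 9.66 and 15.6 to 2.98, 2.39 and 3.87 CPM (−2.001 ± 0.231). CYP707A3 rose from 0.689, 0.733 and 1.79 to 3.94, 2.98 and 4.31 CPM (1.77 ± 0.359, and 2.39 without dry replicate 3). CYP707A2 alone had overlapping values, and it passed the test without dry replicate 3 (−0.31, adjusted p = 0.0484).

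Among the receptors, 8 of 12 tested members rose and 4 fell (median 0.94), against 37.6% and 34.9% of all genes. PYL6 rose with PYL4, from 0.138, 0 and 0.0598 to 3.06, 2.77 and 1.86 CPM (5.18 ± 0.587, and 6.09 without dry replicate 1). PYL7 fell from 18.8, 20.7 and 19.1 to 4.06, 5.71 and 4.03 CPM (−2.09 ± 0.135), and PYL12 from 50.4, 48.9 and 41.9 to 12.8, 13.3 and 8.34 CPM (−2.04 ± 0.171). PYL7 overlaps AT4G01030 on the other strand by 571 bases. PYL11 rose from 52.9, 53.2 and 65.6 to 127, 118 and 90.0 CPM (0.96 ± 0.136). Members of the receptor family thus moved in opposite directions, with no overlap between states for these 5 genes, as for 72.0% of all genes.

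The clade A protein phosphatases 2C, which hold ABA signalling off when no hormone is bound, fell in 6 of 9 tested members and rose in 2 (median −1.10). For all genes the shares were 34.9% and 37.6%. ABI2 (AT5G57050, chromosome 5, 23087122 to 23089631, plus strand) fell from 163, 138 and 159 to 13.6, 11.3 and 14.9 CPM (−3.52 ± 0.139, adjusted p = 8.80e-15). HAI1 fell from 34.5, 28.2 and 30.6 to 3.78, 2.13 and 2.85 CPM (−3.41 ± 0.222), and AHG1, a seed member of the clade that DOG1 binds, from 1025, 972 and 739.6 to 247, 259 and 298 CPM (−1.77 ± 0.111). HAI2 went the other way, from 125, 103 and 88.5 to 185, 234 and 227 CPM (1.03 ± 0.140). Of 9 SnRK2 kinases, which the phosphatases inhibit, 3 rose and 3 fell, near the shares of all genes (37.6% and 34.9%), and 6 rose and 1 fell when scaled by library totals (median 0.46). SNRK2.2 had overlapping values of 117, 114 and 124 CPM in dry and 111, 102 and 118 CPM in imbibed seeds (−0.10 ± 0.0736, adjusted p = 0.243), and was higher by 0.46 when scaled by library totals. SNRK2.8 rose by 4.03 ± 0.287 to 12.5, 13.2 and 20.2 CPM, but overlaps AT1G78280 on the other strand by 169 bases, a gene at 79.7 CPM in dry seeds.

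The regulators of maturation and dormancy did not move as 1 group. Of 14 maturation regulators 6 rose and 7 fell (median −0.13, but 0.07 without replicate 3 of both states), and 7 rose and 4 fell when scaled by library totals (median 0.41). Of 16 dormancy regulators 6 rose and 9 fell (median −0.41), and 8 rose and 5 fell when scaled by library totals (median 0.14). Of all genes 37.6% rose and 34.9% fell. ABI5, the bZIP factor that carries ABA signals in seeds, fell from 1054, 999 and 899 to 185, 235 and 257 CPM (−2.13 ± 0.110, adjusted p = 4.45e-13). ABI3, a B3 domain regulator of maturation, rose from 208, 207 and 188 to 307, 328 and 334 CPM (0.68 ± 0.0741). ABI4, an AP2 factor, rose from 6.76, 6.73 and 5.08 to 33.2, 38.9 and 31.8 CPM (2.49 ± 0.149). ABI5 thus fell while ABI3 and ABI4 rose, with no overlap between dry and imbibed values for any of the 3, as for 72.0% of all genes.

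DOG1, the DELAY OF GERMINATION 1 protein that sets dormancy depth (AT5G45830, chromosome 5, 18589418 to 18591506, minus strand), fell from 69.2, 66.4 and 55.0 to 24.2, 20.0 and 19.2 CPM (−1.59 ± 0.153, adjusted p = 8.11e-09). SOM, a zinc finger repressor of light-dependent germination, fell from 1704, 1629 and 1642 to 652, 570.0 and 749.7 CPM (−1.34 ± 0.103). MFT, a phosphatidylethanolamine-binding protein that acts in ABA and gibberellin responses, fell from 52.7, 53.4 and 65.7 to 22.0, 19.2 and 35.7 CPM (−1.16 ± 0.176), and overlaps AT1G18090 on the other strand by 606 bases. In all 3 every imbibed value was below every dry value, and 72.0% of all genes likewise had no overlap in 1 direction or the other. RDO5, a phosphatase-like protein of dormancy, fell by 0.34 ± 0.0857, but was higher by 0.22 when scaled by library totals. PIF1, a bHLH repressor of germination in the dark, rose from 39.6, 47.2 and 48.0 to 174, 157 and 189.9 CPM (1.95 ± 0.0953).

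Of 10 tested gibberellin synthesis genes 6 rose and 1 fell, with a median of 1.36, against 37.6% risen and 34.9% fallen of all genes. GA3OX1 (AT1G15550, chromosome 1, 5344388 to 5346342, minus strand), which makes the bioactive hormone, had no read in dry seeds and 3.22, 2.302 and 1.38 CPM in imbibed seeds, at least 11.8-fold higher against the floor of 3 counts per library (0.195 CPM). GA3OX2 likewise was without dry reads, with 2.94, 2.64 and 0.830 CPM in imbibed seeds, at least 10.9-fold higher. Imbibed replicate 3 was the lowest library for both genes.

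GA20OX3 (AT5G07200, chromosome 5, 2243553 to 2245339, minus strand), which supplies the precursor, rose from 5.24, 6.26 and 4.43 to 60.6, 65.4 and 85.3 CPM (3.73 ± 0.160, adjusted p = 2.97e-14). GA20OX2 rose from 0, 1.33 and 0.419 to 5.29, 5.71 and 6.48 CPM (3.31 ± 0.490, and 4.67 without dry replicate 2). KAO2, an early-step oxidase, fell by 0.42 ± 0.0770 but was higher by 0.14 (adjusted p = 0.149) when scaled by library totals. The gibberellin 2-oxidases, which inactivate the hormone, fell in 2 of 3 tested members, against 34.9% of all genes. GA2OX6 fell from 7.17, 6.996 and 6.10 to 0.796, 0.853 and 1.62 CPM (−2.62 ± 0.284), and GA2OX2 from 10.9, 7.79 and 8.55 to 3.54, 3.24 and 2.49 CPM (−1.55 ± 0.187). The remaining member did not pass the test.

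In gibberellin signalling 9 genes were tested, with 5 rises, 3 falls and a median of 1.06, against 37.6% risen and 34.9% fallen of all genes. The DELLA proteins, which repress gibberellin responses, were divided: RGA1 rose from 10.9, 9.53 and 10.9 to 77.1, 81.7 and 76.6 CPM (2.91 ± 0.120, adjusted p = 1.62e-14), and RGL2, the main DELLA of seed germination, from 17.9, 16.7 and 18.7 to 76.9, 74.4 and 115 CPM (2.32 ± 0.133). GAI rose by 1.504 ± 0.104. RGL3 fell from 98.4, 89.6 and 71.3 to 32.6, 33.0 and 32.9 CPM (−1.40 ± 0.127). RGL3 was the only one of these 4 DELLA genes to fall, and none of the 4 overlapped between states, as held for 72.0% of all genes. The receptor gene GID1A fell by 0.52 ± 0.0765, from 216, 219 and 191 to 139, 141 and 155 CPM, and its change was 0.033 when scaled by library totals.

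The alpha-expansins, which loosen walls during growth, had 9 tested members, of which 5 rose, 1 fell and 3 did not pass the test. Their median was 3.93, and 37.6% of all genes rose and 34.9% fell. EXPA10 (AT1G26770, chromosome 1, 9259432 to 9261313, plus strand) went from 0.0689, 0.1999 and 0.0598 to 13.8, 13.6 and 8.97 CPM (6.73 ± 0.567, and 7.44 without dry replicate 2). EXPA1 went from 0.827, 0.266 and 0.0598 to 13.2, 13.5 and 26.6 CPM (5.57 ± 0.642, 6.76 without dry replicate 1 and 4.61 without replicate 3 of both states). EXPA13 alone fell, from 18.1, 19.9 and 15.01 to 10.1, 7.84 and 8.97 CPM (−0.97 ± 0.148). No dry library exceeded 0.827 CPM for EXPA10 or EXPA1, and every imbibed library lay far above.

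EXPA9 and EXPA2 rose too, but with a wide spread. EXPA9 stood at 3.14, 0.725 and 5.57 CPM after imbibition (5.09 ± 1.12, from 4.40 without imbibed replicate 3 to 6.39 without dry replicate 1, and 3.79 without replicate 3 of both states). EXPA2 stood at 3.54, 1.49 and 10.9 CPM (5.08 ± 1.21, from 4.01 without imbibed replicate 3 to 9.79 without dry replicate 1, and 3.38 without replicate 3 of both states). Without dry replicate 1 no dry read of EXPA2 remained, so 9.79 is a fitted value that depends on the prior count. Imbibed replicate 2 was the lowest and replicate 3 the highest for both.

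Among 19 genes of xyloglucan and mannan remodelling 11 rose and 4 fell (median 1.35), against 37.6% and 34.9% of all genes. Without replicate 3 of both states 9 rose and the median was 0.85. The summed level of the list fell from 4268 to 6005 CPM in dry to 956 to 1546 CPM in imbibed libraries. XTH16 rose from 0.138, 0 and 0 to 8.48, 5.80 and 3.08 CPM (6.87 ± 0.645, and 9.90 without dry replicate 1). No dry read of XTH16 then remained, so 9.90 is a fitted value that depends on the prior count. XTH15 had no dry read and 1.23, 1.24 and 0.869 CPM in imbibed seeds, at least 5.70-fold higher than the floor. XTH25, a further endotransglucosylase, fell from 5907, 4583 and 4187 to 1426, 1223 and 853 CPM (−2.07 ± 0.207). Members of the same enzyme family therefore moved in opposite directions. Of 8 cellulose synthases 3 rose and 2 fell, against 37.6% and 34.9% of all genes. When scaled by library totals 6 rose and none fell. CESA5, known from seed coat mucilage, rose from 2.62, 2.33 and 2.45 to 7.28, 9.34 and 7.63 CPM (1.71 ± 0.203), and CESA1, of the primary wall, by 0.37 ± 0.0760. CESA2 fell by 0.60 ± 0.101 and CESA9 by 0.79 ± 0.201, and neither passed the test when scaled by library totals (−0.05 and −0.24).

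Ribosomal protein genes rose. All 29 tested members of the cytosolic ribosomal protein list rose, with a median of 1.45, against 37.6% of all genes. Summed over the list, dry libraries held 2858 to 3073 CPM and imbibed libraries 7025 to 7684 CPM. RPS6A (AT4G31700, chromosome 4, 15345979 to 15347804, minus strand), a protein of the small subunit, rose from 56.5, 65.4 and 56.9 to 355, 407 and 362 CPM (2.65 ± 0.0942, adjusted p = 2.54e-15). RPL23AB of the large subunit rose from 25.7, 30.4 and 24.2 to 117, 142 and 127 CPM (2.26 ± 0.0945). Others rose less: P40, also of the small subunit, went from 396, 370.4 and 369 to 736, 745 and 703 CPM (0.94 ± 0.0815). Pairs of near-identical paralogues were divided unequally, with RPL10B rising by 2.82 ± 0.2005 from 1.65, 2.398 and 1.44 CPM and RPL10A by 1.097 ± 0.0761 from 311, 296 and 269.5 CPM. Reads shared by such paralogues may be assigned to either, since the handling of multiply matched reads is not stated.

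The list held 51 names, of which 29 were matched to the annotation by symbol, so the count covers those 29 members. RPL18AA, annotated as a ribosomal protein of the large subunit but not among the 29, differed by −0.15 (adjusted p = 0.345). The upstream sequence of 1 member is shown because it holds both the telo-box and the site II element, known in Arabidopsis from promoters of ribosomal protein genes. It is the 150 bases before the gene start of the deposited annotation, read from the RefSeq TAIR10.1 assembly 5′ to 3′ on the gene's strand. The telo-box (AAACCCTA) and site II element (TGGGCC or TGGGCT) of either strand are in capitals. RPL36AA, at chr3:8375183-8375332 on the plus strand, rose by 1.98.
RPL36AA: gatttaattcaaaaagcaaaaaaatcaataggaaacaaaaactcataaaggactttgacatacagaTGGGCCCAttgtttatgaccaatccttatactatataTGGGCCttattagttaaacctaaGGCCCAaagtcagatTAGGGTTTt
The window holds several site II elements upstream of a telo-box that lies next to the gene start. Within 150 bases, 3 of the 29 ribosomal protein genes had both elements.

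Ribosome biogenesis genes, which process ribosomal RNA and assemble subunits, rose in 25 of 30 tested members and fell in 2 (median 0.59). For all genes the shares were 37.6% and 34.9%. FIB2, a fibrillarin that methylates ribosomal RNA, rose from 35.8, 40.8 and 38.3 to 251, 285 and 259 CPM (2.79 ± 0.122, adjusted p = 4.02e-14). NAP57, the pseudouridine synthase of the nucleolus, rose from 124, 119 and 110.2 to 401, 494 and 429.9 CPM (1.91 ± 0.0966), and NOP56 from 103, 125 and 105 to 337, 381 and 351 CPM (1.68 ± 0.0868). These 3 belong to the small nucleolar ribonucleoproteins, and reads counted to guide RNA genes rose as well, with the limit given above. FIB2 contains a small nucleolar RNA gene on its own strand, which had 1.72 CPM in imbibed seeds. Reads of that gene and of FIB2 cannot be told apart. REIL1, a cytoplasmic maturation factor of the large subunit, fell from 95.6, 102 and 93.2 to 32.1, 31.98 and 34.7 CPM (−1.56 ± 0.0695).

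DNA replication and cell cycle genes rose in 19 of 30 tested members and fell in 4, against 37.6% and 34.9% of all genes. Their median was 1.14, or 0.95 with ORC2 and ORC1B, which had no dry read, held at their floor. The helicase subunit MCM2 rose from 0, 0.1999 and 0.299 to 6.01, 6.27 and 9.17 CPM (5.32 ± 0.484, and 6.06 without dry replicate 3). MCM6 rose from 0, 0 and 0.120 to 2.98, 2.17 and 2.77 CPM (5.75 ± 0.616, and 8.77 without dry replicate 3). The value of 8.77 is fitted without any dry read of MCM6 and depends on the prior count. RNR1, the large subunit of ribonucleotide reductase, was already present and rose from 43.7, 50.2 and 51.3 to 100.1, 104 and 98.4 CPM (1.06 ± 0.0725). MCM2 and MCM6 were thus almost without reads in the dry seed, unlike RNR1.

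Storage protein genes stayed abundant. Of 9 tested members 5 fell and none rose, with a median of −0.91, against 34.9% and 37.6% of all genes. When scaled by library totals 2 fell and 1 rose, with a median of −0.35. By share of all counts the list took 6.49 to 7.98% of dry and 5.63 to 8.11% of imbibed libraries. CRA1, a 12S cruciferin, stood at 30972, 28460.5 and 19572 CPM in dry and 25834, 24525 and 17079 CPM in imbibed seeds (−0.23 ± 0.160, adjusted p = 0.206), overlapping between states. It passed the test without dry replicate 3 (−0.40, adjusted p = 0.0218) and was higher by 0.34 when scaled by library totals. PAP85, a vicilin-like cupin, fell from 30166, 28437 and 27105 to 16906, 15691 and 13116 CPM (−0.91 ± 0.117). SESA5, a 2S albumin, fell from 14997, 11463 and 12935 to 5450.4, 4498 and 5257 CPM (−1.37 ± 0.199). SESA1 and SESA3 fell by 1.02 and 1.04, with replicate 3 well below the other replicates in both states. Neither passed the test without dry replicate 1 (adjusted p 0.0803 and 0.120) or without imbibed replicate 3 (0.0714 and 0.167), nor did SESA3 without dry replicate 2 (0.143).

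Oil body coat genes fell in 7 of 8 tested members and rose in 1 (median −1.60), against 34.9% and 37.6% of all genes. OLEO1 fell from 13309, 11919.8 and 10913 to 5451, 5695 and 4853 CPM (−1.18 ± 0.127), OLEO2 from 5544, 4325 and 3362 to 1105, 1297 and 1178 CPM (−1.89 ± 0.161), and OLEO4 from 6353, 5169 and 3412 to 1362, 1597 and 1165 CPM (−1.86 ± 0.191). Dry replicate 3 was the lowest dry library for all 3, and remained above every imbibed library. Genes that mobilise the oil had 10 rises and 8 falls among 20 (median 0.22), against 37.6% and 34.9% of all genes, and 14 rises and 4 falls when scaled by library totals (median 0.78). ICL, isocitrate lyase of the glyoxylate cycle, rose from 7524, 7646 and 8237 to 14934, 16079 and 18719.5 CPM (1.09 ± 0.122), and MLS, malate synthase of the same cycle, from 2955, 3152 and 2715 to 3922, 4553 and 4867 CPM (0.60 ± 0.0917). ACX1, an acyl-CoA oxidase of beta-oxidation, fell from 423, 436 and 448 to 194, 197 and 218 CPM (−1.10 ± 0.0710), and ACN1, an acetyl-CoA synthetase, from 131, 106 and 124 to 32.8, 36.4 and 41.3 CPM (−1.70 ± 0.0999).

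LEA genes fell in 15 of 18 tested members and rose in 2 (median −1.89), against 34.9% and 37.6% of all genes. Their share of counts went from 3.37 to 4.35% in dry libraries to 1.37 to 1.67% in imbibed ones. EM6 (AT2G40170, chromosome 2, 16779552 to 16780368, minus strand) fell from 15494, 11162 and 8127 to 1319, 1932 and 1671 CPM (−2.82 ± 0.198, adjusted p = 5.15e-11). LEA4-1 fell from 3396, 3171 and 3276 to 606, 608 and 617 CPM (−2.43 ± 0.0928). LTI30, a dehydrin, fell furthest, from 1166, 936 and 1141 to 70.7, 59.6 and 71.0 CPM (−4.01 ± 0.150). M17 fell least, by 0.67 ± 0.164, with 1 dry library well above the rest, and was lower by 0.10 (adjusted p = 0.554) when scaled by library totals. Dry and imbibed values did not overlap for any of these 4 genes, as for 72.0% of all genes.

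The windows before EM6 and LEA4-1 are shown because they hold the ABA response element (ACGTGGC or ACGTGTC), the site that ABI5 and its relatives are known to bind. They follow the same convention, with matches of either strand in capitals. EM6 is at chr2:16780369-16780518 on the minus strand and LEA4-1 at chr1:11774334-11774483 on the plus strand.
EM6: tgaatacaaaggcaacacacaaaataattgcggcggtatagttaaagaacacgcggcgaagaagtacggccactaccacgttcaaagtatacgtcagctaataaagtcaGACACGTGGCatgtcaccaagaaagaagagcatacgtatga
LEA4-1: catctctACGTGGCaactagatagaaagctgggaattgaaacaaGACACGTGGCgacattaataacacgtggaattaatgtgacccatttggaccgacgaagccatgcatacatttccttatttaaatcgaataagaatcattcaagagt
EM6 holds 2 overlapping matches and LEA4-1 holds 3. The element was present within 150 bases of 10 of the 18 tested LEA genes.

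Over the 250 bases before the gene start, motifs were found at different shares in genes that rose and fell. The ABA response element was in 7.83% of the windows of 17640 tested genes, in 14.1% of those that fell at least 4-fold and in 7.10% of those that rose at least 4-fold. It was in 66.7% of the LEA windows. The G-box (CACGTG), which overlaps the ABA response element in letters, was in 7.69% of all windows, 13.3% of those that fell and 7.10% of those that rose. The telo-box was in 4.104% of all windows, 7.10% of those that rose and 2.12% of those that fell, and in 24.1% of the ribosomal protein windows. The site II element was in 24.1% of all windows, 23.59% of those that rose and 12.2% of those that fell, and in 65.5% of ribosomal protein windows. Both elements occurred together in 1.64% of all windows, 3.51% of those that rose, 0.184% of those that fell and 17.2% of ribosomal protein windows. The E2F site (TTTCCCGC), known from replication genes, was in 0.601% of all windows and in 6 of 30 (20.0%) of the DNA replication list. The RY element (CATGCATG), known from storage protein promoters, was in 0.607% of all windows and in 4 of 9 storage protein windows. The TATA box (TATAAA) was at 44.9, 45.1 and 46.0% in all, risen and fallen genes. All motifs were searched on both strands, and a match describes letters in the window, not binding.

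**Figure D4:**
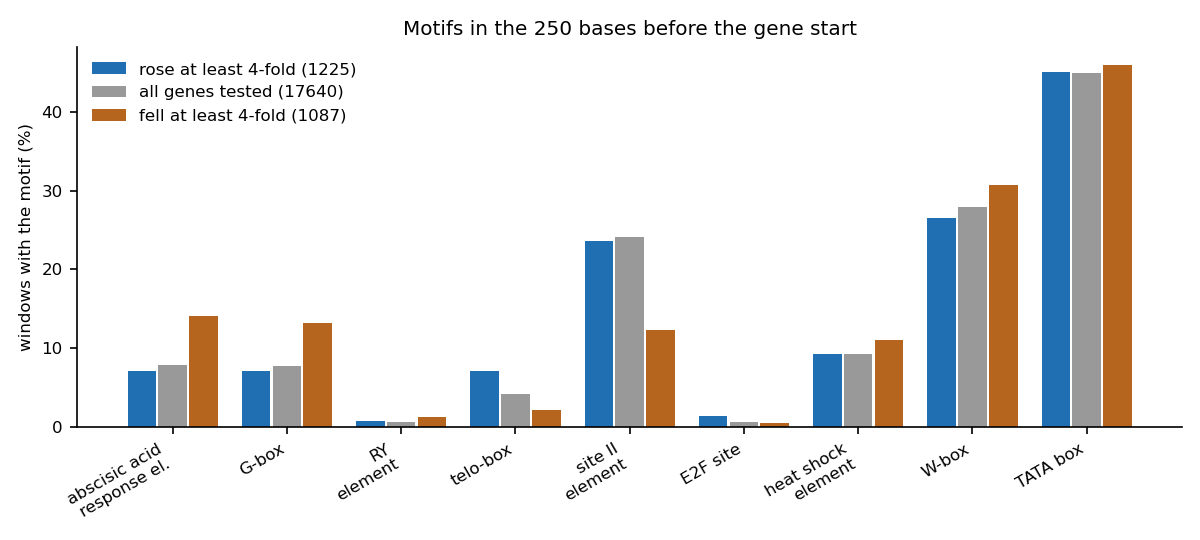
Share of 250-base windows before the gene start that hold each motif (y axis, percent) for genes that rose at least 4-fold (blue), all genes tested (grey) and genes that fell at least 4-fold (brown); numbers of windows are in the key. The ABA response element and G-box are highest in fallen genes (14.1 and 13.3%), the telo-box in risen genes (7.10%), and the TATA box is near 45% in the 3 sets.

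Galactinol and raffinose synthesis, which makes protective sugars, fell in 4 of 7 tested members and rose in 2 (median −1.07). For all genes the shares were 34.9% and 37.6%. GOLS2, galactinol synthase, fell from 1322, 1077 and 1257 to 56.8, 49.1 and 54.7 CPM (−4.51 ± 0.139, adjusted p = 5.51e-16), and GOLS1 from 1078, 1037 and 1194 to 418, 374 and 435 CPM (−1.43 ± 0.0972). DIN10, known as a dark-induced gene of the raffinose synthase family, rose from 0.552, 0.266 and 0.179 to 12.6, 9.72 and 10.3 CPM (5.04 ± 0.418). GOLS2 thus fell far more than GOLS1, and neither overlapped between states, as held for 72.0% of all genes.

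Of 14 heat shock factors 10 fell and none rose (median −0.78), against 34.9% and 37.6% of all genes. HSFA9, the seed-specific factor of maturation (AT5G54070, chromosome 5, 21943983 to 21945651, plus strand), fell from 486, 509 and 505 to 81.38, 75.1 and 66.7 CPM (−2.75 ± 0.113, adjusted p = 1.72e-14). HSFB2B fell from 30.7, 34.5 and 34.0 to 7.004, 6.69 and 6.24 CPM (−2.31 ± 0.0943), and overlaps AT4G11670, at 39.9 CPM in dry seeds, on the other strand by 308 bases. HSFA2 fell by 1.95 ± 0.114. When scaled by library totals, 4 heat shock factors rose and 7 fell, and the median was −0.23.

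Of 6 small heat shock proteins 4 fell and 1 rose (median −0.96), against 34.9% and 37.6% of all genes. HSP17.6, a class II protein, fell from 7137, 6932 and 6688 to 3520.1, 4074 and 4375 CPM (−0.79 ± 0.0977). HSP17.6II fell from 144, 139 and 317 to 26.9, 20.2 and 41.0 CPM (−2.77 ± 0.282), and HSP21, of the plastid, from 44.2, 37.9 and 105 to 19.0, 14.8 and 27.3 CPM (−1.61 ± 0.277, and −1.01 without dry replicate 3). Replicate 3 was the highest for both in each state. The rise of HSP23.6-MITO, by 0.24 at an adjusted p of 0.0491, was lost without any of 4 libraries in turn and without replicate 3 of both states (adjusted p = 0.122). Large chaperones were divided, with 8 rises and 9 falls among 17 (median −0.29), against 37.6% and 34.9% of all genes. When scaled by library totals 9 rose and 7 fell, with a median of 0.26. HSP101, the disaggregase, fell from 1527, 1702 and 1839 to 446, 445 and 470.4 CPM (−1.90 ± 0.0990) and HSP70b from 3316, 3284 and 3991 to 1096, 1054 and 1662 CPM (−1.47 ± 0.148). HSC70-1, the cognate cytosolic chaperone, rose from 653, 696 and 774 to 1965, 2001 and 2165 CPM (1.53 ± 0.105), and BIP1 of the endoplasmic reticulum from 35.7, 34.0 and 34.0 to 111, 108 and 129.6 CPM (1.75 ± 0.115).

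Stress transcription factors had the lowest median of the lists, −2.04, with 11 falls and 2 rises among 15. For all genes the shares were 34.9% and 37.6%. ZAT6, a zinc finger factor (AT5G04340, chromosome 5, 1216058 to 1217362, minus strand), fell from 155, 149.9 and 166 to 4.93, 4.09 and 4.70 CPM (−5.09 ± 0.123, adjusted p = 2.23e-17). DREB2A, a factor of drought and heat responses, fell from 599, 597 and 635 to 52.8, 54.1 and 61.0 CPM (−3.45 ± 0.0904), and WRKY18 from 128, 140.4 and 153 to 21.2, 23.4 and 21.0 CPM (−2.68 ± 0.104). These 3 fell more than 5-fold with closely agreeing replicates. WRKY33, a factor of pathogen responses, stood at 42.3, 43.9 and 187 CPM in dry and 7.04, 7.50 and 17.5 CPM in imbibed seeds (−3.09 ± 0.494, and −2.004 without dry replicate 3).

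The genes of the MKK3 module, which mpk7_ko3 affects by its label, moved in both directions. Of 9 tested members 2 rose and 4 fell (median −0.23, but 3 and 3 with a median of 0.31 when scaled by library totals), against 37.6% and 34.9% of all genes. Among the MAPKKK genes of the group that acts above MKK3, 3 fell. MAPKKK14 fell from 14.7, 12.9 and 13.5 to 1.79, 0.810 and 0.751 CPM (−3.60 ± 0.277, adjusted p = 2.29e-10). MAPKKK13 fell from 93.2, 102 and 67.1 to 12.4, 10.2 and 12.1 CPM (−2.91 ± 0.187). MAPKKK19 fell from 23.2, 19.2 and 19.6 to 2.31, 4.604 and 4.11 CPM (−2.49 ± 0.324). MAPKKK20 rose from 3.45, 3.53 and 3.83 to 6.37, 6.27 and 5.06 CPM (0.71 ± 0.211). MKK3 itself (AT5G40440, chromosome 5, 16181628 to 16184827, plus strand) fell from 20.2, 21.4 and 21.2 to 13.0, 14.5 and 14.5 CPM (−0.58 ± 0.0970, adjusted p = 1.81e-05), but not when scaled by library totals (−0.03). It overlaps AT5G40450 on the other strand by 178 bases.

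Of 16 genes of the stress MAP kinase cascades 4 rose and 5 fell (median −0.08), against 37.6% and 34.9% of all genes. When scaled by library totals 9 rose and 5 fell (median 0.47), and without replicate 3 of both states the median was 0.03. MPK3 fell from 64.7, 74.2 and 82.0 to 35.1, 29.3 and 26.7 CPM (−1.28 ± 0.106), MPK6 from 81.0, 81.3 and 92.1 to 46.0, 43.8 and 44.3 CPM (−0.92 ± 0.0723) and MEKK1, a MAPKKK of stress responses, from 82.7, 96.7 and 84.0 to 39.2, 45.0 and 43.2 CPM (−1.05 ± 0.0843). All 6 tested repressor-type ERF genes fell (median −0.74, and 3 of 6 when scaled by library totals), against 34.9% of all genes. ERF8 fell from 4.76, 3.997 and 4.01 to 0.597, 0.640 and 1.26 CPM (−2.34 ± 0.322) and ERF12 from 135, 139.7 and 155 to 79.5, 76.2 and 79.8 CPM (−0.87 ± 0.0694). ERF4 stood at 19.4, 17.7 and 13.8 CPM in dry and 8.08, 12.9 and 15.02 CPM in imbibed seeds, with overlapping values (−0.50 ± 0.204, adjusted p = 0.0341). The call for ERF4 was lost without dry replicate 1 (adjusted p = 0.125), dry replicate 2 (0.0836) or imbibed replicate 1 (0.215), and the change was 0.061 when scaled by library totals.

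Jasmonate genes fell in 13 of 20 tested members and rose in 5 (median −0.51), against 34.9% and 37.6% of all genes. When scaled by library totals 7 fell and 6 rose, with a median of 0.04. JAZ10, a repressor of the pathway, fell from 7.17, 7.99 and 6.88 to 1.87, 2.09 and 2.02 CPM (−1.88 ± 0.195), JAZ4 by 1.43 ± 0.123 and JAZ3 from 111, 114 and 105 to 50.7, 50.2 and 43.7 CPM (−1.19 ± 0.0963). AOC2, an allene oxide cyclase of jasmonate synthesis, fell from 1.38, 0.799 and 1.91 to 0.239, 0.256 and 0.237 CPM (−2.46 ± 0.389). Repressors and a synthesis enzyme thus fell together. The receptor COI1 fell by 0.35 ± 0.0742, and was higher by 0.20 (adjusted p = 0.0503) when scaled by library totals.

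Light signalling genes rose in 6 and fell in 6 of 17 tested members (median 0.07), shares near the 37.6% and 34.9% of all genes. When scaled by library totals 10 rose and 2 fell, with a median of 0.62. Beside PIF1, PIF4 rose from 3.999, 3.86 and 5.08 to 18.19, 18.5 and 20.1 CPM (2.13 ± 0.166), while PIF5 fell from 6.20, 5.60 and 7.30 to 1.67, 1.71 and 1.94 CPM (−1.84 ± 0.267). PHYA, the phytochrome of far-red light, rose from 94.2, 122 and 111 to 236, 261 and 260.1 CPM (1.21 ± 0.0881), and PHYE fell by 0.71 ± 0.0957, or by 0.16 (adjusted p = 0.121) when scaled by library totals. Members of the bHLH and phytochrome families therefore moved both ways.

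Nitrate response genes had 7 rises and 7 falls among 17 (median −0.43), near the shares of all genes (37.6% and 34.9%). When scaled by library totals they had 8 rises and 4 falls, with a median of 0.12. NRT1.1, the nitrate transporter and sensor, rose from 20.9, 21.8 and 17.41 to 77.7, 80.1 and 88.7 CPM (2.04 ± 0.0994, adjusted p = 1.85e-13), and NIA1, nitrate reductase, from 53.5, 71.8 and 55.4 to 192, 171 and 199 CPM (1.64 ± 0.123). NIR1, nitrite reductase, fell from 198, 262 and 177 to 66.1, 54.8 and 70.7 CPM (−1.73 ± 0.131). NLP8, the regulator of nitrate-promoted germination, differed by −0.18 ± 0.0872 (adjusted p = 0.0688), passed the test without dry replicate 1 (−0.24, adjusted p = 0.0307), and was higher by 0.37 when scaled by library totals.

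Clock genes fell in 10 of 16 tested members and rose in 3 (median −0.31), against 34.9% and 37.6% of all genes. When scaled by library totals the balance turned, with 3 falls, 8 rises and a median of 0.24. The morning genes LHY and CCA1 rose, LHY from 1.103, 1.999 and 2.57 to 12.02, 12.2 and 14.1 CPM (2.73 ± 0.192) and CCA1 from 1.65, 4.13 and 4.07 to 8.99, 11.6 and 12.6 CPM (1.74 ± 0.230). LUX, of the evening complex, fell from 85.6, 77.6 and 80.6 to 26.3, 28.6 and 24.3 CPM (−1.62 ± 0.0822) and RVE2, a MYB-like factor related to LHY, from 117, 124 and 128 to 39.7, 33.0 and 37.5 CPM (−1.74 ± 0.0703). The hour of sampling is not given in the labels, so time of day and imbibition cannot be told apart. LUX overlaps AT3G46650 on the other strand by 1507 bases, a gene with 0.0222 CPM in dry seeds.

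Aquaporins fell in 6 and rose in 2 of 16 tested members (median −0.28), against 34.9% and 37.6% of all genes. When scaled by library totals 4 fell and 5 rose, with a median of 0.27. The tonoplast aquaporins of seeds fell, ALPHA-TIP from 3174, 2876 and 2692 to 1136, 1066 and 959 CPM (−1.47 ± 0.127) and BETA-TIP from 889, 864 and 662 to 187, 197 and 203 CPM (−2.04 ± 0.0997). PIP3, a plasma membrane aquaporin, rose from 5.45, 4.997 and 9.69 to 62.4, 65.6 and 57.5 CPM (3.19 ± 0.226). Reactive oxygen genes rose in 8 and fell in 10 of 21 tested members (median −0.30), against 37.6% and 34.9% of all genes. When scaled by library totals 11 rose and 7 fell, with a median of 0.24. PER1, the peroxiredoxin of seeds, fell from 4764, 4164 and 4562 to 1059, 911 and 874 CPM (−2.25 ± 0.116) and GPX6, a glutathione peroxidase, from 709, 649 and 754 to 226, 195 and 228 CPM (−1.70 ± 0.0852). APX1, cytosolic ascorbate peroxidase, rose from 3.17, 2.86 and 10.53 to 16.4, 13.4 and 39.6 CPM (2.04 ± 0.441), with replicate 3 highest in both states. Its change was 2.94 without dry replicate 3 and 1.41 without imbibed replicate 3.

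Of 67 tested genes of the plastid genome 18 fell and none rose (median −0.57), against 34.9% and 37.6% of all genes. When scaled by library totals 7 plastid genes fell and 1 rose, with a median of −0.02. Of 50 mitochondrial genes 31 fell and 1 rose (median −1.22), or 21 and 1 when scaled by library totals. Plastid genes summed to 102 to 164 CPM in dry and 55.9 to 90.25 CPM in imbibed libraries, and mitochondrial genes to 704 to 1025 and 241 to 334 CPM. By share of all counts, plastid genes took 0.00660 to 0.0135% and mitochondrial genes 0.0285 to 0.0843% of the 6 libraries. These falls are therefore of trace reads, and whether such reads follow the level of organelle transcripts was not tested. Green tissue markers rose in 5 and fell in 7 of 15 tested members (median −0.56, but 5 and 4 with a median of 0.00 when scaled by library totals). LHCB4.1, a photosystem antenna protein, fell from 179.5, 159 and 150.4 to 50.4, 44.8 and 46.8 CPM (−1.78 ± 0.0948), and RBCS1A, the Rubisco small subunit, rose from 29.0, 17.9 and 15.8 to 59.1, 52.5 and 69.4 CPM (1.54 ± 0.182).

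Among 10 tested seed coat markers 3 rose and 3 fell (median 0.15), against 37.6% and 34.9% of all genes. The median was −0.23 among 11 without replicate 3 of both states. When scaled by library totals 5 rose and 3 fell (median 0.71). The summed level of the list was 278 to 296 CPM in dry and 681 to 1021 CPM in imbibed libraries. ARA12, a subtilisin-like protease of seed coat mucilage, rose from 253, 248 and 269.5 to 658, 753 and 997 CPM (1.64 ± 0.114) and carried most of that sum. GL2, a homeobox factor of mucilage cells, fell from 4.34, 4.597 and 5.32 to 1.23, 1.11 and 1.15 CPM (−2.03 ± 0.219). Endosperm markers had only 3 tested members of 11 matched, with 1 fall and a sum of 63.2 to 66.7 CPM in dry and 44.0 to 48.0 CPM in imbibed libraries, and 4 of them had no read in the 6 libraries. The part of tissue make-up in the changes was not tested.

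Complete presence or absence of reads was rare. A total of 291 genes lacked reads in all dry libraries but had at least 1 in each imbibed library, of which 77 passed the test, and 252 genes had the reverse pattern, of which 83 passed. Beside GA3OX1 and GA3OX2, the former group included AT3G23740, at 1.39, 1.58 and 1.46 CPM, and AT4G34800, at 1.79, 1.62 and 0.553 CPM. The latter group was led by PGA4 and VGDH1, another pectin methylesterase, at 12.5, 11.4 and 4.49 CPM in dry seeds and at least 77.5-fold lower after imbibition. AT1G34855 had 13.2 CPM in imbibed replicate 3 and no read in the other 5 libraries, and was not tested.

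Per kilobase of exon, the most abundant transcript in both states was LCR67, a defensin-like peptide, at 71148 ± 11997 CPM per kilobase in dry and 47798 ± 5049 in imbibed seeds (SD, n = 3). RAB18, a dehydrin, was ranked 3 in dry seeds at 19534 ± 4659 and reached 3130 ± 494 in imbibed seeds. ICL, outside the 10 most abundant in dry seeds at 3526 ± 172, was ranked 5 in imbibed seeds at 7491 ± 877. HSP17.6 was among the 10 most abundant in imbibed seeds, at 4524 ± 492, although it fell.

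The response of mpk7_ko3 was set against the responses of Col-0 and mkk3-1 to ask where it differs, using the difference of imbibed minus dry changes in the same edgeR fit. The 3 responses come from separate libraries, while the 2 differences share the mpk7_ko3 libraries. At an adjusted p below 0.05, 1 of 17758 genes (0.00563%) responded differently from Col-0 and 5 (0.0282%) differently from mkk3-1. At an unadjusted p below 0.05 the counts were 1361 and 918 genes. That threshold passes a share of about 0.05 of the 17758 tests even where no gene differs. Neither count is thus one of genes shown to respond differently. The adjusted counts were 58 and 12 by DESeq2, 36 and 9 with no filter on low counts, 7 and 16 without replicate 3 of both mpk7_ko3 states and 19 and 8 without dry mpk7_ko3 replicate 3 alone. Against Col-0 there were also 3 genes without imbibed mpk7_ko3 replicate 1 and 2 without imbibed mpk7_ko3 replicate 3, dry Col-0 replicate 1 or dry Col-0 replicate 3. Among the 12265 genes of at least 5 CPM, the response lay within 1 log2 unit of that of Col-0 for 99.8% and of mkk3-1 for 99.7%, with a median standard error of the difference of 0.15 in each case. A gene that misses the threshold here is not shown to respond alike.

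The gene that differed from both genotypes was AT2G41650, an uncharacterized gene (chromosome 2, 17362645 to 17364518, plus strand). In mpk7_ko3 it went from 14.1, 15.9 and 14.8 to 24.0, 30.7 and 26.3 CPM (0.85 ± 0.0990), and in Col-0 from 5.82, 6.52 and 6.998 to 47.1, 44.2 and 46.2 CPM (2.83). The difference was −1.98 ± 0.147 from Col-0 (adjusted p = 2.14e-07) and −1.24 ± 0.147 from mkk3-1 (adjusted p = 0.000186). The dry level was thus higher and the imbibed level lower than in Col-0, with no overlap in either state. In mkk3-1 seeds AT2G41650 stood at 6.36 ± 0.667 CPM dry and 27.1 ± 1.17 CPM imbibed (SD, n = 3). Its imbibed values in mkk3-1 overlapped those in mpk7_ko3, and its dry values in mkk3-1 were all lower. AT2G41650 overlaps AT2G41640 on the same strand by 1144 bases, and AT2G41640 stood at 4.58 ± 1.82 CPM in dry and 2.78 ± 0.457 CPM in imbibed mpk7_ko3 seeds (SD, n = 3).

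The other 4 genes that differed from mkk3-1 were ILA, RPL18AA, MKK3 and IRT3. ILA rose by 1.07 ± 0.111 in mpk7_ko3, from 79.4, 107 and 86.6 to 190.4, 215 and 169 CPM, and changed by −0.58 in mkk3-1 from a dry level of 357 ± 24.4 CPM (SD, n = 3), a difference of 1.66 ± 0.155 (adjusted p = 1.37e-05). ILA overlaps AT1G64795, which had 479 ± 84.9 CPM in dry mkk3-1 and 6.69 ± 0.284 CPM in dry mpk7_ko3 seeds. RPL18AA changed by −0.15 ± 0.143 in mpk7_ko3 (adjusted p = 0.345, and 0.40 when scaled by library totals) and by −1.51 in mkk3-1, a difference of 1.36 ± 0.189 (adjusted p = 0.00186). RPL18AA overlaps AT1G29965 on the same strand by 1112 bases, and AT1G29965 had 0 CPM in dry and imbibed mpk7_ko3 seeds. MKK3, the gene targeted in mkk3-1, fell by 0.58 in mpk7_ko3 and changed by 0.68 in mkk3-1, a difference of −1.26 ± 0.144 (adjusted p = 0.000135). IRT3, a metal ion transporter, fell by 1.66 from 1.79, 1.399 and 1.97 CPM in mpk7_ko3 and rose by 2.21 from 6.35 ± 0.187 CPM (SD, n = 3) in mkk3-1, a difference of −3.88 ± 0.395 (adjusted p = 3.01e-05). For all 4 the mkk3-1 libraries thus stood apart from those of mpk7_ko3 in at least 1 state. From the Col-0 response the mpk7_ko3 response differed by −0.26, −0.18, −0.20 and −0.15 in the same order (adjusted p 0.74 to 0.98).

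Apart from MKK3, no member of the gene lists responded differently from Col-0 or mkk3-1 at this threshold. DOG1 fell by 1.59 in mpk7_ko3 and by 2.27 in Col-0, a difference of 0.68 ± 0.220 with an adjusted p of 0.449. EXPA10 rose by 6.73 and by 5.28, a difference of 1.45 ± 1.05 with an adjusted p of 0.813. Levels within a state differed more often: 491 genes (2.76%) differed between dry mpk7_ko3 and dry Col-0 seeds, and 1748 (9.84%) between imbibed seeds of the genotypes. In imbibed seeds EXPA10 was lower than in Col-0 by 1.45 (adjusted p = 0.00125), EXPA1 was lower by 1.53 (adjusted p = 0.00715) and DOG1 was higher by 0.92 (adjusted p = 0.00121). These levels were not particular to mpk7_ko3. Mean imbibed levels in mkk3-1 were 6.39 CPM for EXPA10, 18.3 CPM for EXPA1 and 18.6 CPM for DOG1. They were 12.2, 17.8 and 21.1 CPM in mpk7_ko3 and 33.2, 51.5 and 11.1 CPM in Col-0. For each gene all mkk3-1 libraries lay on the same side of the Col-0 libraries as those of mpk7_ko3. DOG1 changed by −1.64 in mkk3-1 and EXPA10 by 4.71.

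**Figure D5:**
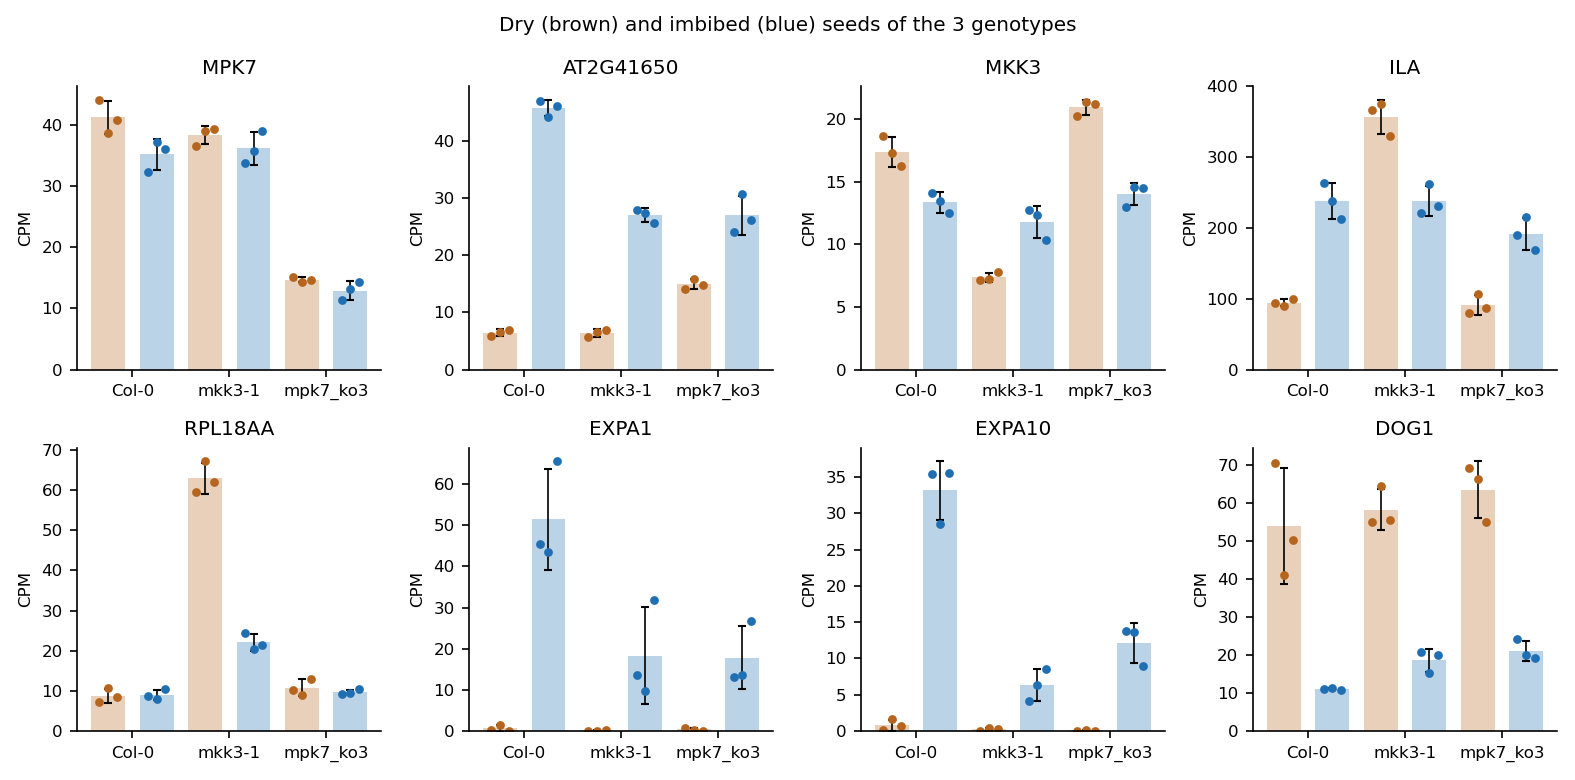
CPM (y axis) of 8 genes in dry (brown) and imbibed (blue) seeds of Col-0, mkk3-1 and mpk7_ko3; points are libraries, bars are means and error bars SD (n = 3). MPK7 is lowest in mpk7_ko3, AT2G41650 has its highest dry level there, and ILA and RPL18AA have their highest dry level in mkk3-1.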

How the data were processed

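RNA was measured in 18 libraries of dry or imbibed seeds, 3 in each of 6 groups defined by genotype and state. The authors deposited 1 table of raw counts per gene and library with the merged exon length of each gene. Per the submitters' processing notes, the tools were fastp 0.20.0, HISAT2 2.1.0, featureCounts 2.0.1 and DESeq2 1.34.0 with the TAIR10 genome; strand setting, multiply matched reads and their order are not given in the sources used here. Genes were kept with filterByExpr (minimum count 10), which removed 15075 genes holding 0.0393% of counts, and 9737 genes had no count in the 6 mpk7_ko3 libraries. The main test was the quasi-likelihood test of edgeR 4.0.16 (R 4.3.3) on TMM-scaled counts, in which all 18 libraries entered and each group had its own mean (12 residual degrees of freedom), two-sided, with Benjamini-Hochberg adjustment and a threshold of 0.05. The common biological coefficient of variation was 0.104. Standard errors were the log2 fold change divided by the root of its F statistic. Differences between responses were contrasts of the same fit. The floor of 3 counts covers counting error only.

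The 37 gene lists (682 names, of which 621 matched the annotation and 8 homonyms were left out) and the comparison were chosen with earlier results of these data known. Genes were named by a rule: the 12 largest rises and falls of at least 5 CPM without overlap, up to 4 changed and 2 abundant members of each list, genes without reads in 1 state, and genes that responded differently between genotypes. ANX1, AT1G34855 and AT2G41640 were named after their values were seen. The design foresaw promoter windows from a prepared table; they were read from the RefSeq TAIR10.1 genome instead, in which 98.2% of 50568 introns of the annotation begin with GT and end with AG. Replicates differed by more than sampling noise (chi-square per degree of freedom 9.77 to 34.9), so none were merged. The procedure was tested on simulated counts in which few genes changed, as many up as down. Such counts cannot test the scaling, because in the data most genes changed. Alternatives were DESeq2 1.42.0, other scalings, no filter, only the libraries compared, a replicate block, stricter thresholds and leaving out libraries.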

Additional observations from a re-analysis of the deposited data

Results flagged for a closer look

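In 6 tests the response of mpk7_ko3 seeds differed from that of another genotype. AT2G41650 responded less than in Col-0, by −1.98 on the log2 scale, and less than in mkk3-1, by −1.24. Against mkk3-1, ILA differed by 1.66, RPL18AA by 1.36, MKK3 by −1.26 and IRT3 by −3.88. All 6 kept their direction and passed the test under every alternative that gave an adjusted p; for AT2G41650 against Col-0 DESeq2 gave none, and the others ranged from −2.08 to −1.90. AT2G41650 shares 1144 bases with AT2G41640, and RPL18AA 1112 bases with AT1G29965, each on its own strand. ILA shares 270 bases with AT1G64795 on the other strand. The counting of each of these pairs may be split. The part of these overlaps in the differences was not tested. For ILA, RPL18AA, MKK3 and IRT3 the response differed from that of Col-0 by −0.26, −0.18, −0.20 and −0.15, and none of these passed the test.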

How the results depend on the processing

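The count of changed genes was within 1.5 times of 12873 under every alternative but the demand for a 2-fold change, which left 6263 genes (3356 higher and 2907 lower) by its construction. Scaling by library totals gave 10447 higher and 3332 lower genes, and under it the changes of MPK7 (0.37), CYP707A2 (0.43), KAO2 (0.14), COI1 (0.20), NLP8 (0.37), GID1A (0.033), ERF4 (0.061), SNRK2.2 (0.46), RDO5 (0.22), CRA1 (0.34) and RPL18AA (0.40) took the other sign. Genes responding differently from Col-0 numbered 1, and 36 with no low-count filter, 22 with the replicate block, 7 without replicate 3 of both mpk7_ko3 states and 58 by the DESeq2 Wald test. Those responding differently from mkk3-1 numbered 5, and 9, 8, 16 and 12 in the same order. Leaving out 1 library gave 1 to 19 and 5 to 8 genes, both highest without dry mpk7_ko3 replicate 3; the cause was not tested. Same-numbered dry and imbibed mpk7_ko3 libraries correlated in their deviations at −0.02, 0.35 and 0.37, and differently numbered ones at −0.44 to 0.24. These values do not settle whether the numbers pair the libraries, and the main fit treated the libraries as unpaired. With the replicate block 6696 genes rose and 6222 fell. Depth limits genes without reads in 1 state to bounds of 3 counts per library.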
